A study of Arabidopsis thaliana with 57 samples.

Results

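The 10 genes described here encode dehydrins, other late embryogenesis abundant (LEA) proteins and cold-regulated proteins of Arabidopsis thaliana leaves. They were chosen by name, with earlier results of these data known. The genes are COR47 (AT1G20440), ERD10 (AT1G20450), RAB18 (AT5G66400), COR15A (AT2G42540), COR15B (AT2G42530), RD29A (AT5G52310), RD29B (AT5G52300), KIN1 (AT5G15960), COR6.6 (AT5G15970, also called KIN2) and LEA7 (AT1G52690). All 10 were found among the 32824 gene identifiers of both deposited tables. Levels are FPKM, fragments scaled to the length of the gene model and to the mapped fragments of the library, so that genes can be compared per length. Leaves came from plants of 4 to 5 weeks grown at 50 µmol photons per m² and s, and each library pooled leaves of 10 to 15 plants. In the contact experiment wild-type (Col-0) plants had stood alone, or had touched others for 1 h or for 1 week, with 3 libraries per group. In the chain experiment 3 touching plants were either all wild type (chain 3WT) or held 1 hpca1-1 plant between wild types (chain WT-hpca1-WT). HPCA1 encodes a receptor kinase that senses hydrogen peroxide at the cell surface. Leaves were taken at the local leaf and at systemic leaves 1, 2 and 3, either under control light or after 30 min of 2000 µmol photons per m² and s on the local leaf, with 3 libraries in each of the 16 groups. The hpca1-1 genotype was sampled at systemic leaf 2 of chain WT-hpca1-WT, and the remaining leaves were all wild type. The libraries are of whole leaf tissue, in which fewer cells of a type and less RNA per cell cannot be told apart. All touching plants, controls of the chains included, had received a buffered solution with 0.05 M phosphate, 0.01% Silwet L-77 and 0.05% agarose at the contact, and individual plants had not, so that contact and solution cannot be told apart.

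LEA proteins and dehydrins are hydrophilic, largely disordered proteins that accumulate in seeds and in leaves that lose water or cool down, where they bind membranes and other proteins and keep them from aggregating. Most of these genes are read through a pair of routes. CBF (DREB1) factors, made in the cold, and their DREB2 relatives, made in drought and heat, bind the CRT/DRE element, and the ABF factors of the abscisic acid pathway bind the abscisic acid response element (ABRE). RD29A is known to answer to both, and RAB18 and RD29B mainly to abscisic acid. COR15A and COR15B act in the chloroplast stroma on the inner envelope.

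Sequences upstream of 6 of the genes are shown because they set side by side the members that came from near 0 to well above it after a week of contact (LEA7, RD29B), a pair of neighbours that light moved by different amounts (KIN1, COR6.6) and the members richest in the CRT/DRE core (RD29A, COR15A). Each is the 300 bases before the annotated gene start in the TAIR10.1 assembly and annotation of RefSeq, 5′ to 3′ on the strand of the gene. Capitals mark the letters CCGAC (core of the CRT/DRE) and ACGTG (core of the ABRE) on either strand, where matches of the same core that overlap count as 1 site. No match of one core overlapped a match of the other.
LEA7: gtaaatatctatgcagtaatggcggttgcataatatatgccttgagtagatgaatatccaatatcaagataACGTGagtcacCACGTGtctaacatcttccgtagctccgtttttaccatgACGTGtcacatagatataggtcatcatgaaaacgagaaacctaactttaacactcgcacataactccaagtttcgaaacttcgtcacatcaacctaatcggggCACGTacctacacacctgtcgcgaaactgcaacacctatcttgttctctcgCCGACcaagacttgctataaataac
RD29B: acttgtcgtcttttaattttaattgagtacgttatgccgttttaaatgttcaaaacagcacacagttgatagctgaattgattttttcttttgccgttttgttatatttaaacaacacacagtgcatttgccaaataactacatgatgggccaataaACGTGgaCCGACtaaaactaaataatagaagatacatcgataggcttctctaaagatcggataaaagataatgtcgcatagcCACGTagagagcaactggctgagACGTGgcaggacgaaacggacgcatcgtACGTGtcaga
RD29A: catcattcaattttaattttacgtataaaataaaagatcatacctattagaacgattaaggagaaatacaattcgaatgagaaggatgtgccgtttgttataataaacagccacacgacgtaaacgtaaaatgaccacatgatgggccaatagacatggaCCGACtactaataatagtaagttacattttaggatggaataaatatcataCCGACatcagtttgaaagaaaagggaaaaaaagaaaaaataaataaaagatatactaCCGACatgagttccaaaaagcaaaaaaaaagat
COR15A: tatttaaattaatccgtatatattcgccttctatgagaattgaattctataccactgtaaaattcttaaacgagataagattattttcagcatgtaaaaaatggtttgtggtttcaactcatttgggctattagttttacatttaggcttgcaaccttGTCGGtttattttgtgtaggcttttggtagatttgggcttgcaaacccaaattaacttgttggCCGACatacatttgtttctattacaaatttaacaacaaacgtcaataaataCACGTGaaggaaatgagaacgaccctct
KIN1: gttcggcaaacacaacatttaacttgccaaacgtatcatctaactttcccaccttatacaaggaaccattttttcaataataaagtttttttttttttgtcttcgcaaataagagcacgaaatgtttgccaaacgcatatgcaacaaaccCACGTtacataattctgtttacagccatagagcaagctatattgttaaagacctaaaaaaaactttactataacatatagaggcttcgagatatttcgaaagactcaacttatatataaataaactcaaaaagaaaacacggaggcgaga
COR6.6: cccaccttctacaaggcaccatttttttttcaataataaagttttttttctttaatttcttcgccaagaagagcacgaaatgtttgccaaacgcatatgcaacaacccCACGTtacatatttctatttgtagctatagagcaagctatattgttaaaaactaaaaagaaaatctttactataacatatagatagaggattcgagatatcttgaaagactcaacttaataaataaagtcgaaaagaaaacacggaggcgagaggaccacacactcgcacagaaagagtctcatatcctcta
The windows are chr1:19619424-19619723 for LEA7, chr5:21236721-21237020 for RD29B, chr5:21240417-21240716 for RD29A, chr5:5209417-5209716 for KIN1 and chr5:5211419-5211718 for COR6.6, where LEA7, RD29B, RD29A, KIN1 and COR6.6 lie on the plus strand, and chr2:17712331-17712630 for COR15A on the minus strand. LEA7 and RD29B each held 4 ABRE cores and 1 CRT/DRE core. RD29A held 3 CRT/DRE cores and no ABRE core, COR15A held 2 CRT/DRE cores and 1 ABRE core, and KIN1 and COR6.6 held 1 ABRE core each. RAB18, whose window (chr5:26519448-26519747, minus strand) overlaps an exon of the neighbouring gene AT5G66410, held 3 ABRE cores and no CRT/DRE core. The window of COR15B overlaps an exon of COR15A and held 1 CRT/DRE core, and those of COR47 and ERD10 held neither core. Among the 27443 windows of the same length before nuclear protein-coding genes, 25.6% held ACGTG and 5.86% held it at 2 or more sites, and 13.9% held CCGAC and 1.77% held it at 2 or more sites. A match describes the letters only. Sequence farther upstream, or after the annotated gene start, was not searched, so a core not found here may stand outside the window.

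On the chromosomes COR47 lies beside ERD10, COR15A beside COR15B, RD29A beside RD29B and KIN1 beside COR6.6, as 4 pairs of neighbours, and RAB18 and LEA7 stand apart. KIN1 and COR6.6 have coding sequences 95.0% identical over 201 bases, and COR15A and COR15B 82.6% identical. Of the stretches of 50 bases in the KIN1 transcript 1.28% also stood in that of COR6.6, and the transcripts of COR15A and COR15B shared none. How the submitters' processing assigned fragments that match both copies is not given in the sources used here, so the split between KIN1 and COR6.6 is uncertain.

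Depth is unknown, since the tables hold no totals of fragments, and counting intervals are left out. Steps between low values gave a relative depth of 0.800 to 1.23 in the 9 contact libraries and 0.790 to 1.32 in the 48 chain libraries. HPCA1 lay between 24.2 and 33.3 FPKM in the 6 hpca1-1 libraries and between 43.4 and 61.4 in the 42 wild-type libraries of the chains. In the 9 contact libraries, all wild type and in a table that may have been normalized separately, it lay between 24.2 and 32.3, the range of the hpca1-1 libraries, so its level separates the genotypes within the chain table alone. The leaf genes RBCS1A, CAB1 and RCA were high in every library (at least 4982 FPKM), whereas the seed storage genes CRA1 and CRU3, the root gene PLT1 and the flower gene AP1 stayed at or below 0.0965. Replicate 3 of the control group at systemic leaf 3 of chain WT-hpca1-WT stood apart from replicates 1 and 2, with SDs of 0.272 and 0.260 over genes on the log2(FPKM + 1) scale, where the median over replicate pairs of that table was 0.160. The exception it makes among the calls below is named where it occurs.

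A week of contact raised 3 members that were low in leaves of plants standing alone, the dehydrin RAB18, the LEA protein LEA7 and RD29B, all known as genes that abscisic acid induces. RAB18 stood at 11.3, 14.1 and 11.3 FPKM in the individual plants, at 11.6, 13.0 and 13.4 after 1 h and at 170.3, 190.0 and 197 after 1 week. The libraries of 1 week lay far above the other 6, which overlapped. The mean was 15.2 times that of individual plants (log2 fold change 3.82 ± 0.09, SE, limma adjusted p = 6.04e-10). LEA7, a member of the LEA family first known from maturing seeds, was listed at 0 in the 3 individual libraries, at 0.0666, 0.245 and 0.367 FPKM after 1 h and at 85.5, 97.5 and 93.2 after 1 week. No fold is given against libraries at 0, but the 1 week libraries were above those of 1 h by 6.25 ± 0.11 on the log2(FPKM + 1) scale (SE, limma adjusted p = 8.37e-11). RD29B went from 0.649, 0.546 and 0.546 FPKM in individual plants to 7.73, 7.89 and 8.63 after 1 week, a mean 13.9 times as high (log2 fold change 2.52 ± 0.12, SE, adjusted p = 1.14e-07), and was at 0.665, 0.435 and 0.505 after 1 h. Here and below a log2 fold change is a difference of log2(FPKM + 1), which understates the change of low genes, and a gene is said to have risen or fallen where the adjusted p was under 0.05.

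RD29B and LEA7 reached 1 FPKM only in the 1 week libraries and so entered the test through the group where they were high. Their calls and adjusted p values above are descriptions for that reason. Counts are therefore given for the 8 members at or above 1 FPKM in every library. Of these, 6 were higher after 1 week than in individual plants, 0 were lower and 2 were not called, where 14.8% of genes tested were called, 9.56% higher and 5.29% lower. Their median log2 change was 0.27, beside 0.03 over all genes tested. RD29A, which abscisic acid, drought and cold all induce, rose from 86.8, 90.0 and 89.8 to 109.8, 117 and 117 FPKM (0.36 ± 0.04, SE, adjusted p = 6.28e-05), and the groups did not overlap. KIN1 rose from 56.3, 59.1 and 47.1 to 75.3, 84.0 and 74.1 (0.52 ± 0.09, adjusted p = 0.00261). COR47, ERD10 and COR6.6 were higher by 0.26, 0.19 and 0.29 on the log2 scale. The call of ERD10 was lost without replicate 2 of the 1 week group and with eBayes without trend. That of COR6.6, whose groups overlapped, was lost without any of 4 libraries (replicates 1 and 3 of individual plants, 2 and 3 of 1 week), and with median-of-ratios scaling (0.26, adjusted p = 0.0614), with no filter, with eBayes without trend and with only the groups compared in the fit. The stroma proteins COR15A and COR15B, by contrast, held 1622 ± 109 and 124 ± 5.93 FPKM (SD, n = 3) in individual plants and 1673 ± 31.0 and 129.7 ± 3.65 after 1 week, with overlapping groups (adjusted p = 0.528 and 0.368).

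**Figure D1:**
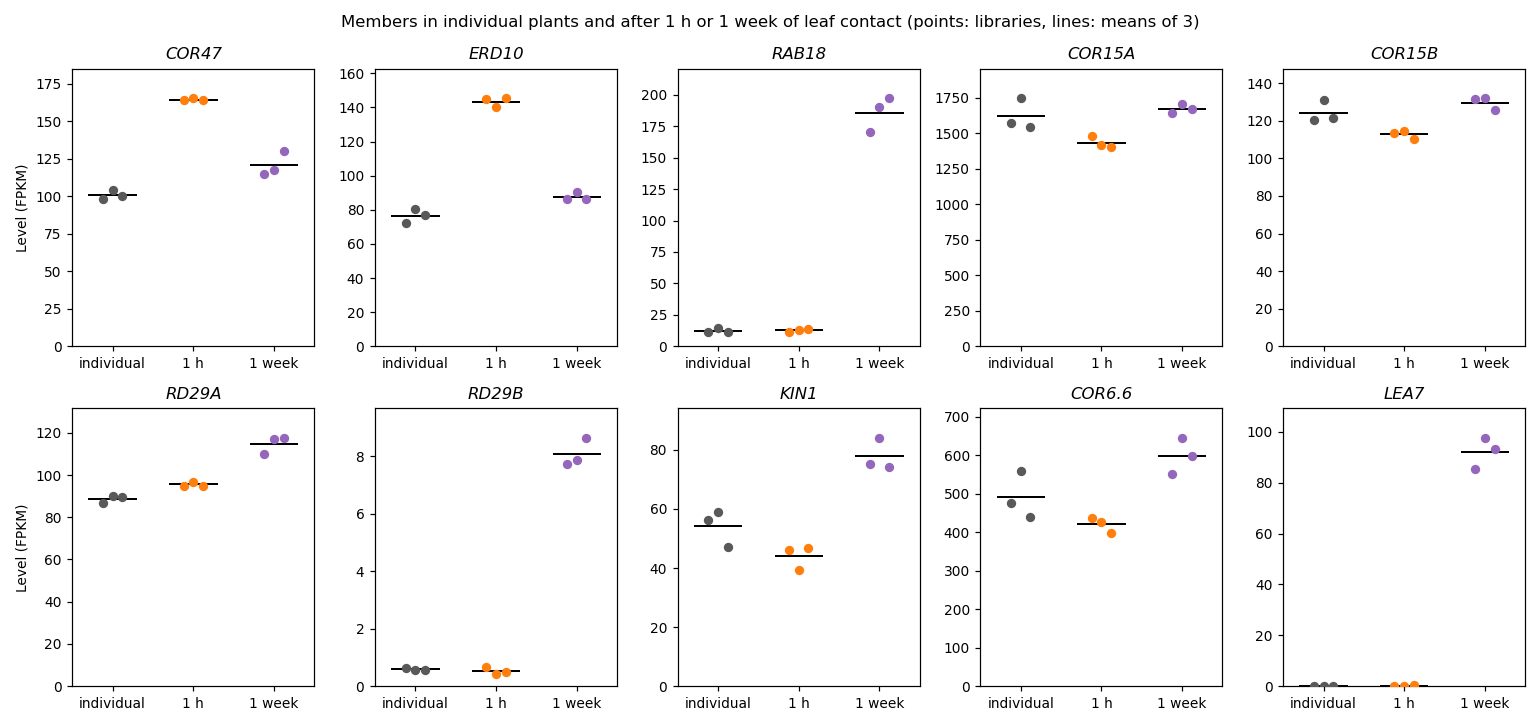
Levels of the 10 genes in FPKM (y axes, each from 0) in individual plants and after 1 h or 1 week of contact, with 1 point per library and a line at the mean of 3. RAB18, RD29B and LEA7 are high in the 1 week libraries alone, COR47 and ERD10 are highest at 1 h, and COR15A and COR15B differ little.

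After 1 h of contact the rise lay in other members, the acidic dehydrins COR47 and ERD10, which bind membranes and are known to answer to cold and drought. COR47 stood at 98.0, 104 and 100 FPKM in individual plants and at 164, 165 and 164 after 1 h (0.70 ± 0.05, SE, limma adjusted p = 1.06e-06). ERD10 went from 72.4, 80.4 and 77.1 to 145, 140.1 and 145 (0.90 ± 0.04, adjusted p = 1.13e-07). Neither group overlapped the other, and after 1 week both genes were lower than after 1 h, at 115, 118 and 129.8 and 86.1, 90.3 and 86.3 (-0.44 ± 0.05 and -0.71 ± 0.04, adjusted p = 3.71e-05 and 5.92e-07). In all, 2 of the 8 members were higher after 1 h, 2 were lower and 4 were not called, where 14.7% of genes tested were called, 9.02% higher and 5.73% lower. The members lower were COR15A (-0.18, adjusted p = 0.018) and COR15B (-0.14, adjusted p = 0.0459). The first call was lost without replicate 2 or without replicate 3 of the 1 h group, and with no filter, with eBayes without trend and with only the groups compared in the fit. The second was lost without any 1 of the 6 libraries compared, and with median-of-ratios scaling (-0.13, adjusted p = 0.0909), with quantile normalization (-0.10, adjusted p = 0.0794), with no filter, with eBayes without trend and with only the groups compared in the fit. RD29A, KIN1 and COR6.6 held 95.5 ± 1.02, 44.1 ± 4.01 and 421 ± 20.1 FPKM after 1 h and 88.9 ± 1.76, 54.2 ± 6.25 and 492 ± 61.5 in individual plants (SD, n = 3).

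Set directly against 1 h, the libraries of 1 week were higher in 6 of the 8 members and lower in 2, COR47 and ERD10, where 22.1% of genes tested were called, 12.4% higher and 9.66% lower. Among the 6, RAB18 stood 14.7 times as high at 1 week, KIN1 1.77 times, COR6.6 1.42 times, RD29A 1.20 times, COR15A 1.17 times and COR15B 1.15 times (ratios of mean FPKM, limma adjusted p between 3.7e-10 and 0.00481). The 3 comparisons of contact share libraries, so they are not independent of each other.

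Other genes of the same pathways were counted in 6 lists. Some of them reached 1 FPKM only in the group where they were high, so each count over the genes tested is followed by the count over those at or above 1 FPKM in every library of the table, where these differ in number. The second count leaves out genes that rose from, or fell to, less than 1 FPKM. At 1 week, where 9.56% of all genes tested were higher and 5.29% lower, the list of other abscisic acid and drought response genes had 7 higher and 0 lower of 8 tested (5 and 0 of the 6 at 1 FPKM in every library). Abscisic acid signalling genes had 7 higher and 0 lower of 13 tested (6 and 0 of the 12 at 1 FPKM in every library). In the second list the phosphatase HAI1 rose most, from 1.43 ± 0.235 to 9.51 ± 1.20 FPKM (SD, n = 3). Other dehydrins had 2 higher and 0 lower of 3 tested, led by LTI30, from 10.2 ± 0.685 to 32.9 ± 5.58 FPKM. Other LEA genes had 5 higher and 0 lower of 7 tested (3 and 0 of the 4 at 1 FPKM in every library). Other cold-regulated genes had 3 higher and 0 lower of 8 tested (2 and 0 of the 7 at 1 FPKM in every library). CBF and DREB factors and their regulators had 2 higher and 0 lower of 6 tested (0 and 0 of the 4 at 1 FPKM in every library). In 4 lists the gene with the largest rise was not at 1 FPKM in every library. LTP4, a lipid transfer protein, was listed at 0 in individual plants and at 114 ± 10.8 FPKM at 1 week. LEA4-5 was at 0.0756 ± 0.0883 FPKM in individual plants and 12.4 ± 2.64 at 1 week, and DREB2A was at 0.732 ± 0.192 FPKM in individual plants and 6.47 ± 0.907. COR27 was at 0.303 ± 0.192 FPKM in individual plants and 3.10 ± 1.10. At 1 h, where 9.02% of all genes were higher and 5.73% lower, abscisic acid signalling had 1 higher and 2 lower of 13 tested (1 and 2 of the 12 at 1 FPKM in every library). The response genes had 1 higher and 2 lower of 8 tested (1 and 2 of the 6 at 1 FPKM in every library). For CBF and DREB factors and their regulators it was 3 higher and 1 lower of 6 tested (2 and 1 of the 4 at 1 FPKM in every library). Among the factors DREB1A (CBF3) fell from 5.24 ± 0.127 to 2.75 ± 0.390 FPKM, and DDF1 was listed at 0 in individual plants and at 4.94 ± 0.214 after 1 h. For other dehydrins it was 2 higher and 0 lower of 3 tested. For other LEA genes it was 2 higher and 1 lower of 7 tested (2 and 1 of the 4 at 1 FPKM in every library), and for other cold-regulated genes 1 higher and 1 lower of 8 tested (1 and 1 of the 7 at 1 FPKM in every library).

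In the lit local leaf the same acidic dehydrins rose most. ERD10 stood at 199, 201 and 201 FPKM under control light and 492, 489 and 472 under elevated light in chain 3WT (1.27 ± 0.04, SE, limma adjusted p = 3.79e-25). In chain WT-hpca1-WT it went from 241, 245 and 234 to 638, 621 and 638 (1.39 ± 0.04, adjusted p = 1.47e-26). COR47 rose in both lit leaves, from 205, 213 and 213 to 364, 373 and 361 in chain 3WT (0.80 ± 0.04) and from 265, 255 and 258 to 452, 457 and 461 in the other (0.81 ± 0.04). The lit leaf of chain WT-hpca1-WT held the highest mean of both genes among the 16 groups. COR15B moved the other way. It fell from 107, 96.7 and 95.0 to 51.7, 51.7 and 52.4 FPKM in chain 3WT (-0.92 ± 0.05, adjusted p = 6.02e-19) and from 129.9, 123 and 125 to 49.4, 50.6 and 53.6 in chain WT-hpca1-WT (-1.28 ± 0.05, adjusted p = 1.75e-23), with no overlap. RD29A fell in both lit leaves, from 176 ± 2.89 to 130.1 ± 4.50 FPKM and from 210.3 ± 7.03 to 161 ± 3.11 (SD, n = 3; log2 fold changes -0.44 ± 0.04 and -0.39 ± 0.04).

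The small cold-induced proteins KIN1 and COR6.6 parted in the lit leaf. KIN1 rose from 31.7, 25.3 and 31.3 to 38.5, 39.9 and 36.9 FPKM in chain 3WT (0.38 ± 0.09, adjusted p = 0.000474) and from 60.3, 59.4 and 62.8 to 90.6, 89.3 and 94.4 in chain WT-hpca1-WT (0.58 ± 0.09, adjusted p = 8.57e-07). COR6.6 fell from 1487 ± 51.8 to 1213 ± 34.5 and from 1825 ± 18.6 to 1509 ± 34.5 FPKM (SD, n = 3; -0.29 ± 0.03 and -0.27 ± 0.03). The fall in chain WT-hpca1-WT was -0.06 and not called with median-of-ratios scaling. COR15A was at 738, 703 and 725 FPKM under control light and 754, 755 and 769 under elevated light in chain 3WT (0.07 ± 0.03, adjusted p = 0.0438), a call that was lost without replicate 2 or 3 of the control group or without any replicate of the elevated-light group and with no filter or eBayes without trend, and whose sign turned with quantile normalization (-0.037). In chain WT-hpca1-WT it rose from 874 ± 21.1 to 1104 ± 27.3 FPKM (SD, n = 3; 0.34 ± 0.03). RAB18 was at 15.7 to 16.3 FPKM in the lit leaf of chain 3WT and 15.3 to 19.6 in the other, and was not called (adjusted p = 0.164 and 0.282).

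Of the 8 members at or above 1 FPKM in every chain library, 4 rose and 3 fell in each lit leaf, where 59.3% of genes tested were called, 14% higher and 45.3% lower in chain 3WT, and 62.5% of genes tested were called, 13.6% higher and 48.9% lower in the other. The shares of members called are to be read against those of all genes, which were high there. All genes tested had a median change of -0.16 and -0.19, and that of the 8 members was -0.03 and 0.22. Measured from the all-gene median, ERD10 rose by 1.43 and 1.58, and COR15B fell by 0.76 and 1.10 on the log2 scale. The directions of the members called were the same relative to that median in all 8 comparisons of light.

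**Figure D2:**
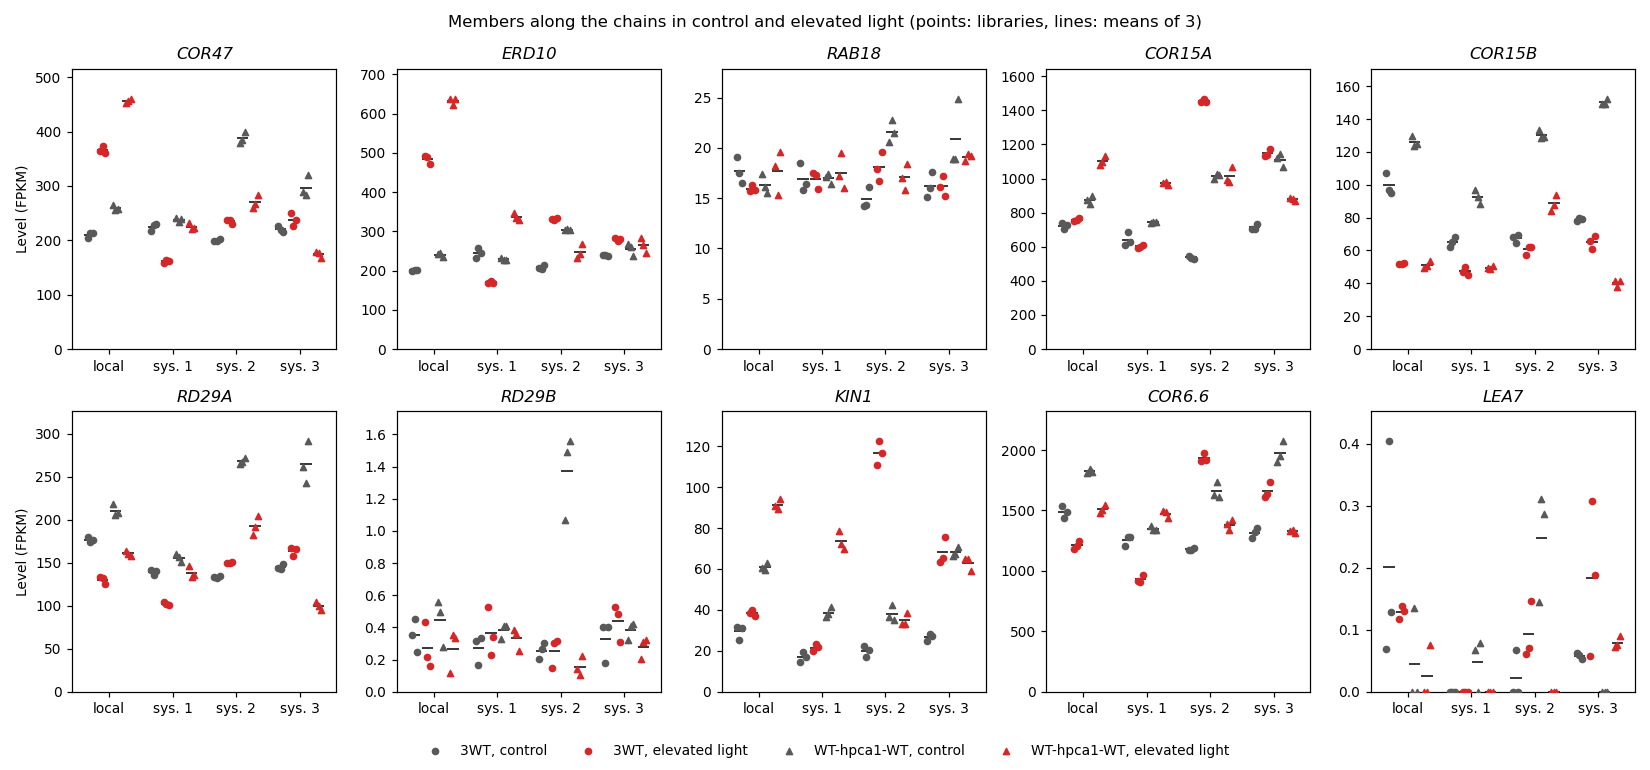
Levels of the 10 genes in FPKM (y axes, each from 0) at the local leaf and systemic leaves 1 to 3, with circles for chain 3WT, triangles for chain WT-hpca1-WT, grey for control and red for elevated light. Points are libraries and lines are means of 3. ERD10 and COR47 peak in the lit leaf, COR15A and KIN1 peak at systemic leaf 2 of chain 3WT, and LEA7 stays below 1 FPKM in all 48 libraries.

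In the unlit leaves of chain 3WT the largest changes were the rises of KIN1 and COR15A at systemic leaf 2. COR15A stood at 548, 536 and 528 FPKM under control light and at 1451, 1469 and 1449 when the local leaf had been lit (1.44 ± 0.03, SE, limma adjusted p = 4.84e-30). KIN1 went from 22.6, 17.0 and 20.3 to 111, 122 and 117 FPKM (2.50 ± 0.09, adjusted p = 3.39e-23). The lowest library under elevated light lay far above the highest in control for both. COR6.6 went from 1176, 1171 and 1187 to 1912, 1979 and 1916 (0.72 ± 0.03) and ERD10 from 206, 205 and 214 to 331, 329 and 334 (0.67 ± 0.04). COR47, RAB18 and RD29A rose by 0.23, 0.26 and 0.17, and COR15B fell by 0.15 on the log2 scale. The call of RAB18 was lost without replicate 1 or 2 of the control group or replicate 3 of the elevated-light group. The call of COR15B was lost without replicate 3 of the control or 1 of the elevated-light group, and with median-of-ratios scaling (-0.02, adjusted p = 0.847) and with quantile normalization (-0.11, adjusted p = 0.0908). In all, 7 of the 8 members rose and 1 fell, where 41.2% of genes tested were called, 8.55% higher and 32.7% lower. The median of the 8 was 0.46 and that of all genes -0.12.

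COR15A and KIN1 were also higher at systemic leaf 3 of chain 3WT. COR15A went from 703, 704 and 731 to 1133, 1135 and 1174 FPKM (0.69 ± 0.03, adjusted p = 1.49e-19). KIN1 went from 25.0, 28.0 and 27.4 to 63.4, 65.3 and 75.8 (1.31 ± 0.09, adjusted p = 1.74e-14). COR6.6, ERD10, RD29A and COR47 rose by 0.34, 0.23, 0.17 and 0.11, and COR15B fell by 0.27 on the log2 scale. The call of COR47 was lost without replicate 2 or 3 of the control or replicate 1 of the elevated-light group and with only the groups compared in the fit. Of the 8 members 6 rose and 1 fell, where 23% of genes tested were called, 8.81% higher and 14.1% lower. Systemic leaf 1 showed another picture, in which 6 of the 8 members fell and 1 rose, where 14.8% of genes tested were called, 7.18% higher and 7.58% lower. ERD10 fell from 231, 258 and 246 to 168, 173 and 169 FPKM (-0.52 ± 0.04, adjusted p = 1.18e-12) and COR47 from 217, 228 and 230.4 to 157, 164 and 163 (-0.48 ± 0.04). COR15B, RD29A and COR6.6 fell by 0.45, 0.44 and 0.43, and the groups of each did not overlap. COR15A fell by 0.09, a change whose call was lost without replicate 2 of the control group (then -0.04) and without replicate 1 or 2 of the elevated-light group. It was also lost with median-of-ratios scaling (-0.10, adjusted p = 0.054), with quantile normalization (-0.0075, adjusted p = 0.95), with no filter, with eBayes without trend and with only the groups compared in the fit. KIN1 rose from 14.7, 19.2 and 16.9 to 19.7, 23.4 and 21.7 FPKM (0.34 ± 0.09, adjusted p = 0.0068), a call lost without replicate 1 of the control or 2 of the elevated-light group and with only the groups compared in the fit.

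In chain WT-hpca1-WT the wild-type systemic leaf 1 showed members that rose and members that fell. ERD10 rose from 232, 227 and 227 to 346, 334 and 328 FPKM (0.55 ± 0.04, adjusted p = 7.98e-14). KIN1 rose from 36.7, 37.8 and 41.4 to 78.7, 72.3 and 69.8 (0.91 ± 0.09, adjusted p = 1.07e-10) and COR15A from 739, 744 and 746 to 973, 981 and 961 (0.39 ± 0.03, adjusted p = 5.41e-13). COR15B fell from 96.8, 92.6 and 88.1 to 49.2, 48.8 and 50.5 (-0.89 ± 0.05, adjusted p = 4.09e-18). The groups of these 4 genes did not overlap. COR6.6 rose by 0.13 and RD29A fell by 0.17 on the log2 scale (RD29A was not called with median-of-ratios scaling), and COR47 was at 238 ± 4.36 FPKM under control light and 224 ± 6.10 under elevated light (SD, n = 3). In all, 4 of the 8 members rose and 2 fell, where 29.5% of genes tested were called, 9.31% higher and 20.1% lower.

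In the hpca1-1 leaf, systemic leaf 2 of that chain, none of the 8 members was called higher, 6 were lower and 2 were not called, where 17.9% of genes tested were called, 6.21% higher and 11.7% lower. At that leaf COR15A and KIN1, the genes that rose most in its wild-type counterpart, stood at 996, 1025 and 1019 and 36.4, 42.4 and 35.2 FPKM under control light and at 994, 978 and 1069 and 33.0, 33.1 and 38.5 under elevated light, with overlapping groups (adjusted p = 1 and 0.415). COR47 fell from 379, 385 and 399.9 to 259, 267 and 283 (-0.52 ± 0.04, adjusted p = 7.02e-14). COR15B fell from 133, 128 and 129 to 84.2, 87.7 and 94.0 (-0.55 ± 0.05) and RD29A from 265, 267 and 272 to 182, 191 and 204 (-0.48 ± 0.04). ERD10, RAB18 and COR6.6 fell by 0.30, 0.32 and 0.26, the call of RAB18 being lost without replicate 2 of the elevated-light group. RD29B reached 1 FPKM in the 3 control libraries of this leaf alone, at 1.07, 1.49 and 1.56, and was at 0.143, 0.103 and 0.219 under elevated light. It entered the test through that control group, so its call (-1.03 ± 0.12, adjusted p = 8.7e-09) is a description.

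At the wild-type systemic leaf 3 of that chain, 5 of the 8 members fell and none rose by the test, where 27.5% of genes tested were called, 13.4% higher and 14.1% lower. COR15B fell from 149, 149 and 152 to 41.4, 37.9 and 41.4 FPKM (-1.88 ± 0.05, adjusted p = 3.55e-28). RD29A fell from 261, 243 and 291 to 105, 99.8 and 94.6 (-1.40 ± 0.04, adjusted p = 2.22e-25), the largest falls of either gene in the 8 comparisons of light. COR47 fell from 288, 283 and 321 to 179, 176 and 167 (-0.77 ± 0.04), COR6.6 from 1899, 1952 and 2073 to 1327, 1336 and 1316 (-0.57 ± 0.03) and COR15A from 1123, 1143 and 1066 to 887, 881 and 866 (-0.34 ± 0.03). These 5 calls held without replicate 3 of the control group, the library that stood apart. ERD10, RAB18 and KIN1 held 254 ± 15.7, 20.9 ± 3.48 and 68.2 ± 2.45 FPKM under control light and 264 ± 18.6, 19.1 ± 0.322 and 63.0 ± 3.28 under elevated light (SD, n = 3).

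RAB18 and RD29B, the members known mainly for their answer to abscisic acid, were not called in the other comparisons of light. RAB18 was at 16.9 ± 1.41 FPKM under control light and 16.9 ± 0.850 under elevated light at systemic leaf 1 of chain 3WT (SD, n = 3). At its systemic leaf 3 it was at 16.2 ± 1.28 FPKM under control light and 16.2 ± 1.02 under elevated light. At systemic leaf 1 of chain WT-hpca1-WT it was at 17.0 ± 0.511 FPKM under control light and 17.5 ± 1.76 under elevated light. The groups overlapped at each of these leaves. Outside the hpca1-1 leaf RD29B stayed below 1 FPKM in every chain library, with group means from 0.253 to 0.444 FPKM and overlapping groups in all 7 comparisons of light there.

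The chains already differed under control light, and at every position the members that differed were higher in chain WT-hpca1-WT. At systemic leaf 2, which compares hpca1-1 with wild type, 8 of the 8 members were higher, where 20.3% of genes tested were called, 7.83% higher and 12.5% lower. Their median log2 difference was 0.91, beside -0.02 for all genes. RD29A held 133, 133 and 134 FPKM in chain 3WT and 265, 267 and 272 in chain WT-hpca1-WT (1.00 ± 0.04, SE, limma adjusted p = 5.28e-20). COR47 held 198, 198 and 202 FPKM in chain 3WT and 379, 385 and 399.9 in chain WT-hpca1-WT (0.95 ± 0.04, adjusted p = 1.8e-21). No library of one chain reached into the range of the other for any of the 8. COR15B, COR15A and KIN1 were higher by 0.94, 0.91 and 0.90, and ERD10, RAB18 and COR6.6 by 0.55, 0.51 and 0.49 on the log2 scale. RD29B, the gene known as the stricter abscisic acid marker of the RD29 pair, held 0.203, 0.263 and 0.301 FPKM in chain 3WT and 1.07, 1.49 and 1.56 in chain WT-hpca1-WT. LEA7 was at 0, 0.0666 and 0 and 0.145, 0.311 and 0.286 FPKM there and did not pass the filter.

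Members were also higher in the wild-type leaves of chain WT-hpca1-WT than in those of chain 3WT under control light. At systemic leaf 3, 7 of the 8 members were higher and 0 lower, where 17.3% of genes tested were called, 5.62% higher and 11.6% lower. COR15B held 77.8, 79.7 and 78.8 FPKM in chain 3WT and 149, 149 and 152 in chain WT-hpca1-WT (0.92 ± 0.05, adjusted p = 5.32e-18). KIN1 held 25.0, 28.0 and 27.4 FPKM in chain 3WT and 66.2, 67.3 and 70.9 in chain WT-hpca1-WT (1.32 ± 0.09, adjusted p = 1.91e-14). COR47, COR15A, RD29A and COR6.6 were higher by 0.43, 0.64, 0.86 and 0.59 on the log2 scale. Of these calls that of RAB18 (0.33) was lost without replicate 3 of its group, the library that stood apart, and with only the groups compared in the fit. At the local leaf, 7 of the 8 were higher (12.8% of genes tested were called, 7.97% higher and 4.81% lower), led by KIN1 with 31.7, 25.3 and 31.3 FPKM in chain 3WT and 60.3, 59.4 and 62.8 in chain WT-hpca1-WT (1.03 ± 0.09). The others differed by 0.25 to 0.34 on the log2 scale. At systemic leaf 1, 5 of the 8 were higher (15.1% of genes tested were called, 7.39% higher and 7.67% lower), with KIN1 at 1.15, COR15B at 0.50, COR15A at 0.21, RD29A at 0.16 and COR6.6 at 0.11. The call of COR6.6 was lost without replicate 1 of either group, and with quantile normalization (0.05, adjusted p = 0.461) and with only the groups compared in the fit. The labels name no batch, and a batch of one chain could not be told apart from the mutant neighbour.

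The difference of the light response between chains was tested as an interaction, which uses the control libraries just compared and the libraries of both light comparisons, and so is independent of neither. At systemic leaf 2 the signed change in light was lower in the hpca1-1 leaf than in the wild-type leaf for 8 of the 8 members, where 18.8% of genes tested were called, 13% higher and 5.88% lower. The difference was largest for KIN1 (-2.62 ± 0.13, SE, limma adjusted p = 1.91e-18) and COR15A (-1.44 ± 0.04, adjusted p = 1.8e-24). In elevated light itself KIN1 held 111, 122 and 117 FPKM in the wild-type leaf and 33.0, 33.1 and 38.5 in the hpca1-1 leaf, and COR15A 1451, 1469 and 1449 and 994, 978 and 1069. The levels of the members under elevated light were not all ordered that way. ERD10 and COR6.6 were also lower in the hpca1-1 leaf. Their groups did not overlap. RD29A was higher, at 149, 149 and 151 in the wild-type and 182, 191 and 204 in the hpca1-1 leaf under elevated light (signed difference of the change -0.64 ± 0.06). COR47 was higher in hpca1-1 as well (235 ± 4.81 and 269.8 ± 12.4 FPKM, SD, n = 3). So was COR15B (60.6 ± 2.97 and 88.6 ± 4.97), and neither gene overlapped. RAB18 overlapped (18.1 ± 1.44 and 17.1 ± 1.31). At systemic leaf 3 the signed change of 7 of the 8 was lower in chain WT-hpca1-WT (14.1% of genes tested were called, 8.37% higher and 5.74% lower), with COR15B (-1.61 ± 0.07) and RD29A (-1.57 ± 0.06) first. The call of ERD10 there (-0.18, adjusted p = 0.0386) was lost without any of 9 of the 12 libraries, and with quantile normalization (-0.10, adjusted p = 0.364), with no filter, with eBayes without trend and with only the groups compared in the fit. At systemic leaf 1, the signed change of 6 of the 8 was higher in chain WT-hpca1-WT and that of 1, COR15B, was lower (23.2% of genes tested were called, 7.79% higher and 15.4% lower). For COR47 (-0.48 in chain 3WT and -0.08 in the other) and RD29A the higher signed change is a value nearer to 0, and for COR15B the lower one is farther from 0. ERD10 differed most there (1.08 ± 0.06, adjusted p = 1.1e-17), having fallen in chain 3WT and risen in the other. At the lit leaf COR15A (0.26 ± 0.04) and COR15B (-0.36 ± 0.07) alone among the 8 were called, where 15.3% of genes tested were called, 5.54% higher and 9.79% lower.

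**Figure D3:**
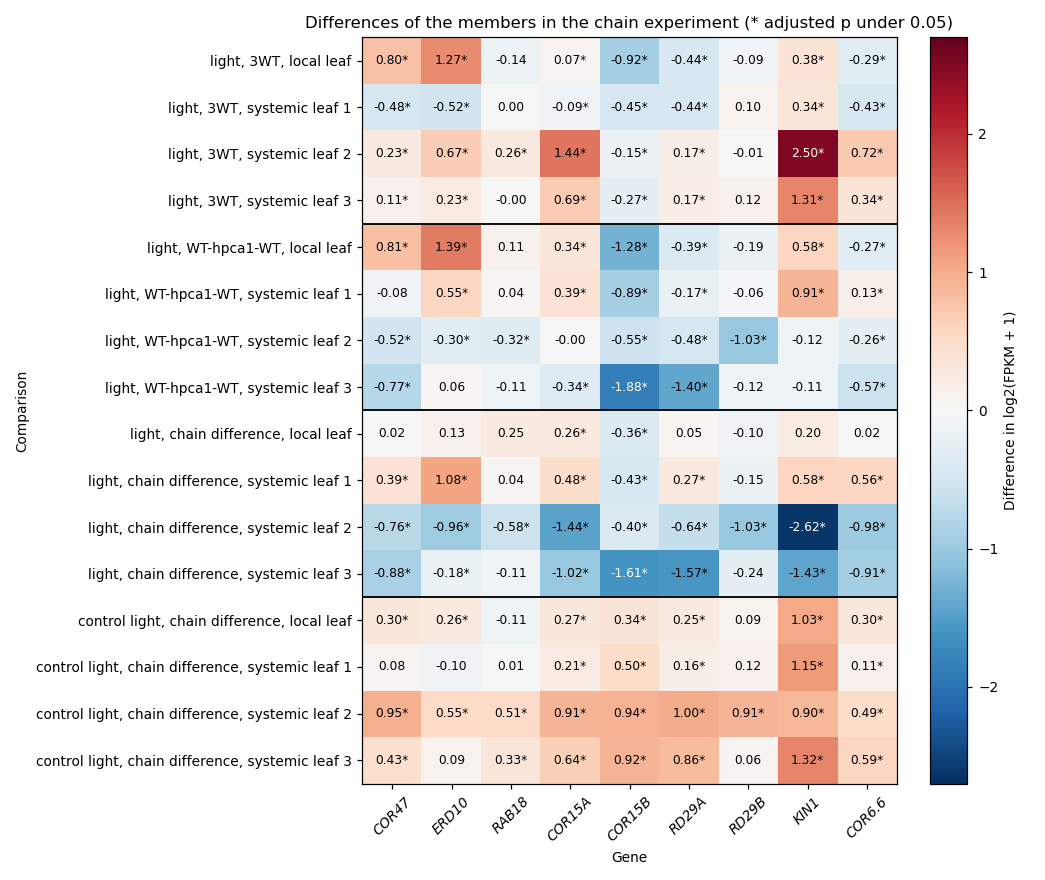
Differences in log2(FPKM + 1) for the 9 members that passed the filter in the chain table (columns) in 16 comparisons (rows): elevated minus control light in each chain, the WT-hpca1-WT minus 3WT difference of that response, and the WT-hpca1-WT minus 3WT difference under control light. Red is positive, blue is negative, and an asterisk marks an adjusted p under 0.05. COR15B is blue in all 8 light rows, and KIN1 at systemic leaf 2 is the strongest red of the light rows.

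The split of all calls into higher and lower depended on scaling, while the directions of the members called did not, except for COR15A in the lit leaf of chain 3WT. From FPKM as deposited to median-of-ratios scaling, the share of calls that were lower in light moved from 76.3% to 44.2% at the local leaf, 79.3% to 46.1% at systemic leaf 2 and 61.6% to 47.3% at systemic leaf 3 of chain 3WT. For chain WT-hpca1-WT it moved from 78.2% to 47.1% at the local leaf, 68.4% to 48.7% at systemic leaf 1 and 65.3% to 48.4% at systemic leaf 2. For the difference between chains under control light it moved from 37.6% to 52.8% at the local leaf, 61.4% to 49.9% at systemic leaf 2 and 67.5% to 56.2% at systemic leaf 3. For the interaction it moved from 66.5% to 50.0% at systemic leaf 1, 31.2% to 60.0% at systemic leaf 2 and 40.7% to 52.0% at systemic leaf 3, and with quantile normalization from 63.9% to 48.1% at the local leaf.

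COR15A and COR15B, neighbours that encode similar stroma proteins, changed relative to each other at the lit leaf and at the unlit systemic leaves of both chains. The ratio of COR15A to COR15B FPKM within a library ranged over 6.90 to 7.63 under control light and 14.6 to 14.7 under elevated light at the lit leaf of chain 3WT. It ranged over 6.72 to 7.16 under control light and 21.2 to 21.9 under elevated light at that of chain WT-hpca1-WT. At systemic leaf 2 it was 7.64 to 8.30 under control light and 23.3 to 25.4 under elevated light in chain 3WT. In the hpca1-1 leaf it was 7.48 to 7.98 under control light and 11.1 to 11.8 under elevated light. In each of the 8 pairs of chain and leaf the 3 ratios under elevated light lay above the 3 under control light. In the contact experiment, without elevated light, the ratio differed little, at 13.0 ± 0.301, 12.7 ± 0.298 and 12.9 ± 0.406 in individual plants and after 1 h and 1 week (SD, n = 3). These values lay above the group means of 6.93 to 9.86 under control light in the chains. A scale factor of a whole library cancels in such a ratio, and the cause of the gap was not tested. The ratio of KIN1 to COR6.6 was also higher in light, at 0.0145 to 0.0192 under control light and 0.0579 to 0.0619 under elevated light at systemic leaf 2 of chain 3WT, and among the 8 pairs the groups overlapped only in the hpca1-1 leaf, at 0.0218 to 0.0245 under control light and 0.0238 to 0.0270 under elevated light. In the contact experiment the mean ratio of KIN1 to COR6.6 was 0.110, 0.105 and 0.130 in individual plants and after 1 h and 1 week. Group means in the chains were 0.0135 to 0.0606, and the cause of this gap was not tested. These ratios are described without a test, since 3 libraries against 3 cannot give an exact two-sided p under 0.10.

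**Figure D4:**
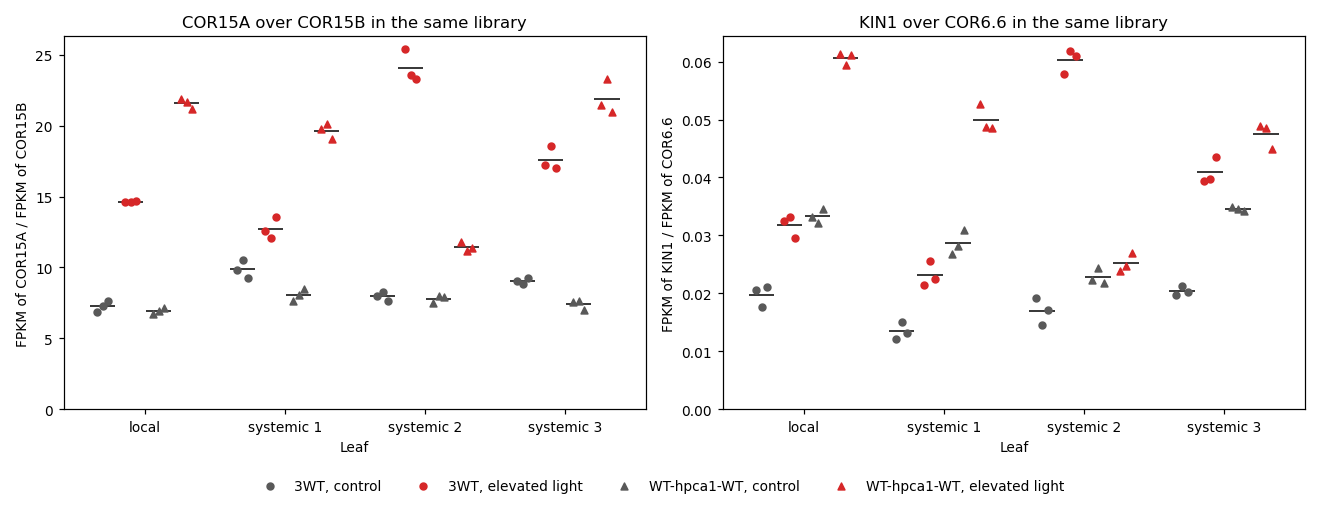
Ratio of COR15A to COR15B (left) and of KIN1 to COR6.6 (right) within each library, from FPKM, at the 4 leaf positions, with circles for chain 3WT, triangles for chain WT-hpca1-WT, grey for control and red for elevated light. Lines are means of 3. Red points lie above the grey points of the same chain and leaf for COR15A over COR15B, and also for KIN1 over COR6.6 except in the hpca1-1 leaf, where they overlap.

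Over the 48 chain libraries COR6.6 was the most abundant member per length (912 to 2073 FPKM), followed by COR15A (528 to 1469). ERD10 (168 to 638), COR47 (157 to 461) and RD29A (94.6 to 291) overlapped each other, as did COR15B (37.9 to 152) and KIN1 (14.7 to 122). RAB18 lay at 14.2 to 24.9, RD29B at 0.103 to 1.56 and LEA7 at 0 to 0.404 FPKM. When the 16 groups are ordered by the mean of a gene, neighbours in the order overlapped in 15 of 15 steps for RAB18, in 6 for COR15A and in 7 for ERD10. The highest group mean was 6.88 times the lowest for KIN1, 3.74 times for COR15B, 3.72 times for ERD10 and 1.45 times for RAB18. Across the 16 group means, which come from plants of 1 experiment and are not independent, the gene most like COR15A among all tested was KIN1 (Pearson r = 0.884), followed by AT4G06536 (0.850) and BCAT4 (0.830). Those most like RAB18 were ATCG00560 (0.790), NdhS (0.765) and AT1G30820 (0.762). Summed over the 10 genes, the share of all FPKM ran from 0.266% at systemic leaf 1 of the lit chain 3WT to 0.554% at its systemic leaf 2 (means of 3).

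The other genes of the pathways were counted in the same comparisons, with the same pair of counts, and some of these comparisons are given here. At systemic leaf 2 of chain 3WT 8.55% of all genes were higher and 32.7% lower, and in the hpca1-1 leaf 6.21% of all genes were higher and 11.7% lower. Abscisic acid signalling genes had 8 higher and 1 lower of 13 tested (7 and 1 of the 12 at 1 FPKM in every library) in the first and 0 higher and 7 lower of 13 tested (0 and 6 of the 12 at 1 FPKM in every library) in the second. HAI1, an abscisic acid induced phosphatase, rose from 4.55 ± 0.455 to 11.8 ± 0.823 FPKM in the first and fell from 8.30 ± 1.21 to 3.39 ± 0.334 in the second (SD, n = 3). Other abscisic acid and drought response genes had 6 higher and 1 lower of 7 tested and 1 higher and 4 lower of 7 tested. RD20, a caleosin of lipid droplets, went from 94.6 ± 1.09 to 400.5 ± 11.0 and from 107 ± 2.32 to 121 ± 5.22 FPKM. Other LEA genes had 1 higher and 3 lower of 6 tested (1 and 3 of the 5 at 1 FPKM in every library) in the first. In the second they had 0 higher and 3 lower of 6 tested (0 and 3 of the 5). In the first SAG21 fell from 119.6 ± 5.06 to 45.4 ± 1.16 FPKM, and LEA14 rose from 131.3 ± 2.77 to 202.1 ± 6.58. Other dehydrins had 2 higher and 1 lower of 3 tested in the first. At the wild-type systemic leaf 1 of chain WT-hpca1-WT signalling genes had 8 higher and 1 lower of 13 tested (7 and 1 of the 12). Response genes had 6 higher and 1 lower of 7 there (all genes 9.31% higher, 20.1% lower). At its systemic leaf 3 signalling genes had 6 higher and 1 lower (5 and 1 of the 12). Response genes had 4 higher and 2 lower there (all genes 13.4% higher, 14.1% lower). CBF and DREB factors and regulators had 0 higher and 7 lower of 8 tested (0 and 3 of the 4 at 1 FPKM in every library) at systemic leaf 2 of chain 3WT and 0 higher and 5 lower of 8 tested (0 and 1 of the 4 at 1 FPKM in every library) in the hpca1-1 leaf. In the lit leaves, where 45.3% and 48.9% of all genes were lower, this list had 3 higher and 1 lower of 8 tested (1 and 1 of the 4 at 1 FPKM in every library) in chain 3WT and 1 higher and 3 lower of 8 tested (0 and 1 of the 4 at 1 FPKM in every library) in the other. DREB2A, a factor of drought and heat responses that is not at 1 FPKM in every library, went from 1.64 ± 0.114 to 89.4 ± 6.13 and from 1.46 ± 0.189 to 64.5 ± 2.45 FPKM there (SD, n = 3).

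The hpca1-1 leaf was also compared with the wild-type leaf of chain 3WT under control light, where genotype and chain could not be told apart. In that comparison 7.83% of all genes were higher and 12.5% lower. Other dehydrins had 3 higher and 0 lower of 3 tested, led by LTI30 (17.6 ± 1.67 FPKM in wild type and 49.2 ± 2.04 in hpca1-1, SD, n = 3). Abscisic acid signalling genes had 9 higher and 0 lower of 13 tested (8 and 0 of the 12 at 1 FPKM in every library). CBF and DREB factors and their regulators had 6 higher and 0 lower of 8 tested (2 and 0 of the 4 at 1 FPKM in every library). Other cold-regulated genes had 6 higher and 0 lower of 9 tested (4 and 0 of the 6 at 1 FPKM in every library). For other LEA genes it was 1 higher and 1 lower of 6 tested (1 and 1 of the 5 at 1 FPKM in every library), and for other response genes 5 higher and 2 lower of 7 tested. These response genes had 0 higher and 5 lower of 7 in chain WT-hpca1-WT under control light at the local leaf and at systemic leaf 1. All genes were 7.97% higher and 4.81% lower at the local leaf, and 7.39% and 7.67% at systemic leaf 1. At systemic leaf 3 response genes had 2 higher and 2 lower (all genes 5.62% and 11.6%). In light, other cold-regulated genes had 1 higher and 3 lower of 9 tested (1 and 1 of the 6 at 1 FPKM in every library) at systemic leaf 2 of chain 3WT, where 32.7% of all genes were lower, and 0 higher and 7 lower of 9 tested (0 and 5 of the 6 at 1 FPKM in every library) in the hpca1-1 leaf, where 11.7% were. AT4G33980 of this list, which is not at 1 FPKM in every library, was at 9.74 ± 0.565 FPKM under control light and 0.410 ± 0.214 under elevated light in the hpca1-1 leaf (SD, n = 3). Other dehydrins had 0 higher and 3 lower of 3 tested there. At the wild-type systemic leaf 3 of chain WT-hpca1-WT cold-regulated genes had 0 higher and 7 lower of 9 (0 and 5 of the 6). Other dehydrins had 0 higher and 3 lower of 3 at that leaf, where 14.1% of all genes were lower. Its systemic leaf 1 had 1 higher and 6 lower cold-regulated genes (1 and 4 of the 6), beside 20.1% of all genes lower. Its lit leaf had 3 higher and 6 lower (2 and 4 of the 6), beside 48.9%. The lists are described by counts without a test.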

How the data were processed

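The authors deposited gene-level FPKM values, with a first table holding 9 contact libraries and a second holding 48 chain libraries. Per the submitters' processing notes, Trim Galore 0.6.10, FastQC 0.12.1, HISAT2 2.2.1, SAMtools 1.18, Cufflinks 2.2.1 and Cuffdiff 2.2.1 and the build TAIR10 were used. Their settings, the annotation and strand handling are not given in the sources used here. Columns were matched to samples by library name (HL in the columns is EL in the titles). No columns were left over. Tests were made within a table, since the tables may have been normalized separately.

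A gene entered the tests of a table where 3 or more libraries reached 1 FPKM (17177 and 18735 genes; 10 and 9 members). The linear model, on log2(FPKM + 1), came from limma 3.58.1 (R 4.3.3) and gave each group its mean, using every library of the table and moderated variances with a trend. Two-sided p-values received the Benjamini-Hochberg adjustment across every gene tested in a comparison. The fit was tested on simulated data. The rule for named genes was to describe the members that were called with their changes and the rest by levels, and from the lists the genes with the largest rise or fall. Not every member that was not called is given for each comparison. Replicates pooled leaves of different plants per the labels. Upstream windows came from the RefSeq TAIR10.1 genome, whose names matched all members. Members and lists were chosen with earlier results of these data known.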

Additional observations from a re-analysis of the deposited data

Results flagged for a closer look

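Members whose response to light differed between the chains by the interaction test (limma, adjusted p under 0.05) are given here as the response in the WT-hpca1-WT chain minus that in the 3WT chain, in log2(FPKM + 1). At the lit local leaf they were COR15A (0.26) and COR15B (-0.36). At systemic leaf 1 they were COR47 (0.39), ERD10 (1.08), COR15A (0.48), COR15B (-0.43), RD29A (0.27), KIN1 (0.58) and COR6.6 (0.56). At systemic leaf 2, hpca1-1 against wild type, they were COR47 (-0.76), ERD10 (-0.96), RAB18 (-0.58), COR15A (-1.44), COR15B (-0.40), RD29A (-0.64), RD29B (-1.03), KIN1 (-2.62) and COR6.6 (-0.98), where RD29B entered the test only through the hpca1-1 control libraries. At systemic leaf 3 they were COR47 (-0.88), ERD10 (-0.18), COR15A (-1.02), COR15B (-1.61), RD29A (-1.57), KIN1 (-1.43) and COR6.6 (-0.91). The control-light difference between the chains enters each of these values, and its part in them was not tested.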

How the results depend on the processing

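Of 129 calls of members in the 19 comparisons, 113 kept their direction and an adjusted p under 0.05 under every alternative in which the gene was tested (pseudocount 0.1, no filter, a filter at FPKM 5, median-of-ratios scaling, quantile normalization, eBayes without trend, only the groups compared, the replicate block, each library left out in turn). The other 16 were lost under at least 1. The 129 include calls of RD29B and LEA7, which entered the test through the group where they were high. With the filter at FPKM 5, 126 of the 129 calls were tested. Single libraries lost 44 of 924 values. With quantile normalization the change of COR15A in the lit leaf of the 3WT chain turned from 0.07 to -0.037, and the cause was not tested. The 4 members called after 1 h of contact became 2 with no filter, with eBayes without trend, with only the groups compared and at an adjusted p under 0.01, and ran from 2 to 5 when libraries were left out. The other counts of members called stayed within 1.5 times their value. Replicate numbers did not clearly pair the libraries of the groups compared. Same-numbered libraries had correlated deviations of -0.0886 to 0.148, and in none of 15 comparisons were all 3 over 0.1. Pairing between leaf positions of a chain was not examined. In 2 comparisons every library correlated best with its own number. With the replicate block the count after 1 h of contact was 4 and no call was lost. FPKM values hold no totals, so differences of genes near 0, such as LEA7 in the chains, could not be judged against counting error.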

Other observations

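LEA7 did not pass the filter in the chain experiment and is in none of its comparisons. It was listed at 0 in 22 of 48 chain libraries. It stood at 0.145, 0.311 and 0.286 FPKM in the hpca1-1 control libraries and at 0 in the 3 hpca1-1 libraries in elevated light, and at 0.0572, 0.308 and 0.187 at systemic leaf 3 of the lit 3WT chain.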
